A study of Mus musculus with 24 samples.

Results

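The homeostatic astrocyte markers are 10 genes that resting, healthy astrocytes of the adult brain use for their support functions: Aqp4, Mlc1, Slc4a4, Gja1, Gjb6, Aldh1l1, Aldoc, S100b, Sox9 and Fgfr3. A gene was taken as the array feature annotated with its symbol and no other, the brightest one where there were several. Each of the 10 had exactly 1 such feature, and all 10 were bright enough to be tested, among 16739 genes tested and 30141 genes with a feature of a single symbol. They were measured in the ventromedial hypothalamus (VMH), a nucleus that regulates energy balance, dissected from brain sections of 100 µm.

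The mice had either a Gfap-directed conditional deletion of the clock gene Bmal1 (labelled Gfap-Bmal1 cKO, and KO in the array titles) or the label control (WT in the titles), and had eaten a high fat diet (HFD) or a standard diet (SD) for 16 weeks. The 4 groups are cKO on HFD, control on HFD, cKO on SD and control on SD, with 3 arrays each, 12 of the 24 arrays of the series. Gfap is active in astrocytes and also in some progenitor and ependymal cells, and a VMH sample still holds the Bmal1 transcripts of its other cells. The labels give neither the age, sex or strain of the mice nor whether the controls carried floxed alleles or Cre, and they leave unsaid whether each array is a mouse of its own. A p-value here sets a difference against the spread among arrays of a group, part or all of which may be technical.

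Astrocytes clear transmitters, buffer potassium, move water at the endfeet that wrap blood vessels, and pass metabolites to neurons, and they are joined into networks by gap junctions. BMAL1 pairs with CLOCK or NPAS2 and activates genes from E-boxes, of which the canonical one reads CACGTG and the general one CANNTG. The genes below are markers because astrocytes express them at a high level relative to most other brain cells, but several are shared: S100b and Aldoc are also found in other glia or neurons, and Sox9 and Fgfr3 in ependymal cells and progenitors.

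Values are the deposited log2 signals of a whole-tissue array. A log2 difference of 1 is a doubling. In such bulk samples, fewer astrocytes and less RNA per astrocyte cannot be told apart. Array medians in VMH lay between 5.37 and 5.48, arrays correlated at 0.992 to 0.996, and no 2 were identical. The targeted gene, Bmal1 (listed under its symbol Arntl), had no lower signal in cKO than in control arrays, and its mean was higher in cKO arrays on both diets. It averaged 9.19 ± 0.30 in cKO and 8.95 ± 0.23 in control arrays on HFD, and 9.17 ± 0.21 in cKO and 8.62 ± 0.16 in control arrays on SD (SD, n = 3 each). Its difference averaged over diets was 0.40, with a limma adjusted p of 0.250. Which exons were removed, and whether the probes of this feature fall there, is unknown here, so the value is no check of the genotype. Here cKO and control name the arrays by their labels, and each direction rests on those labels.

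Markers of cell types were looked up among the genes bright enough to be tested. All 10 markers of VMH neurons were bright enough to be tested, including Nr5a1, the transcription factor that defines this nucleus, and so were all 10 general neuron markers. Of 7 choroid plexus markers only 3 were, and Ttr, the most typical of them, was not. Past the same filter were 16 of 16 measured oligodendrocyte markers, 7 of 7 microglia, 7 of 8 vascular and 6 of 8 tanycyte and ependymal markers. The filter lies at 5.39, below the VMH median of 6.20 of the array's negative-control features, and 16739 of 30141 genes passed it. Passing it does not by itself show that a cell type is present, nor does failing it show absence. These counts are thus no check of the dissection.

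RefSeq promoter windows (GRCm38.p6) were at hand for 8 of the 10 genes, 11 windows in all because Fgfr3, Slc4a4 and Aldoc each have more than 1 start. The 250 bases before an annotated transcript start of 3 genes are shown because these genes had the values that differed most between the genotypes among those with a window: Aldh1l1 and S100b, lower in the cKO arrays, and Gjb6, higher in the cKO arrays on SD. They are read 5′ to 3′ on the gene's own strand and lie at chr6:90550543-90550792 (plus strand), chr10:76253586-76253835 (plus strand) and chr14:57133612-57133861 (minus strand). The S100b and Gjb6 windows end where the annotated gene begins, and the last 25 bases of the Aldh1l1 window lie within it, after an earlier start. Capitals mark each match to CANNTG, which reads the same on both strands.
Aldh1l1: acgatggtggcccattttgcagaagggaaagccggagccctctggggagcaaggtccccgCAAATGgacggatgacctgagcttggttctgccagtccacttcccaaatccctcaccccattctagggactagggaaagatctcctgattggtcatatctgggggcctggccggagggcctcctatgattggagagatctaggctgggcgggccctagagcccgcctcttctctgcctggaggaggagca
S100b: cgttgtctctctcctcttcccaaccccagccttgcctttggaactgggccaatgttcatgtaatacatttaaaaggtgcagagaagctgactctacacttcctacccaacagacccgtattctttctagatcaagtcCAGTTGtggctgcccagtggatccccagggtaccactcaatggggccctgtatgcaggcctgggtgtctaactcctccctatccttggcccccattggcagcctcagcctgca
Gjb6: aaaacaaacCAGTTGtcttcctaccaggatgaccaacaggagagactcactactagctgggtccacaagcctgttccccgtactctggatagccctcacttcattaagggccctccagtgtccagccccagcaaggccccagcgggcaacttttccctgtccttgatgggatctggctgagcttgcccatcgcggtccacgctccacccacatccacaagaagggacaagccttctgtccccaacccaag
Each of these 3 windows held 1 match to the general motif, CAAATG for Aldh1l1 and CAGTTG for both S100b and Gjb6. Across the family, 7 of 11 windows held CANNTG, against 66.22% of 32851 windows of the same length over all genes, and CACGTG, which is contained in that pattern, was found in 0 of 11, against 6.02% of all windows. A match describes letters in the window and is no evidence of binding.

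The markers covered a wide range of brightness. Aldoc was at 15.3 to 16.1 over the 12 arrays, brighter than 97.9% of the genes tested, followed by Slc4a4 at 12.94 to 13.33 and Mlc1 at 12.42 to 13.03. S100b, Sox9 and Fgfr3 had medians of 10.21, 9.60 and 9.50, and Gjb6 and Aqp4 had medians of 8.45 and 8.32. The dimmest were Gja1 and Aldh1l1, with medians of 6.69 and 6.62, just above the brightest of 23 background features of the array (2.67 to 6.46, median 3.52). The 5222 features that the array names as negative controls were brighter, with a VMH median of 6.20 and a 95th percentile of 9.73. Of the 10 markers, 6 averaged below that percentile (Aqp4, Gjb6, Fgfr3, Sox9, Gja1 and Aldh1l1), as did 73.4% of the genes tested, and Aqp4 was brighter than 85.9% of these controls. Brightness depends on the probes of each feature, so this order does not rank the genes by transcript number. The within-group SD was lowest for Fgfr3 (0.12) and highest for S100b (0.30), which exceeded that of 95.1% of the genes tested, and the median over those genes was 0.12.

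**Figure D1:**
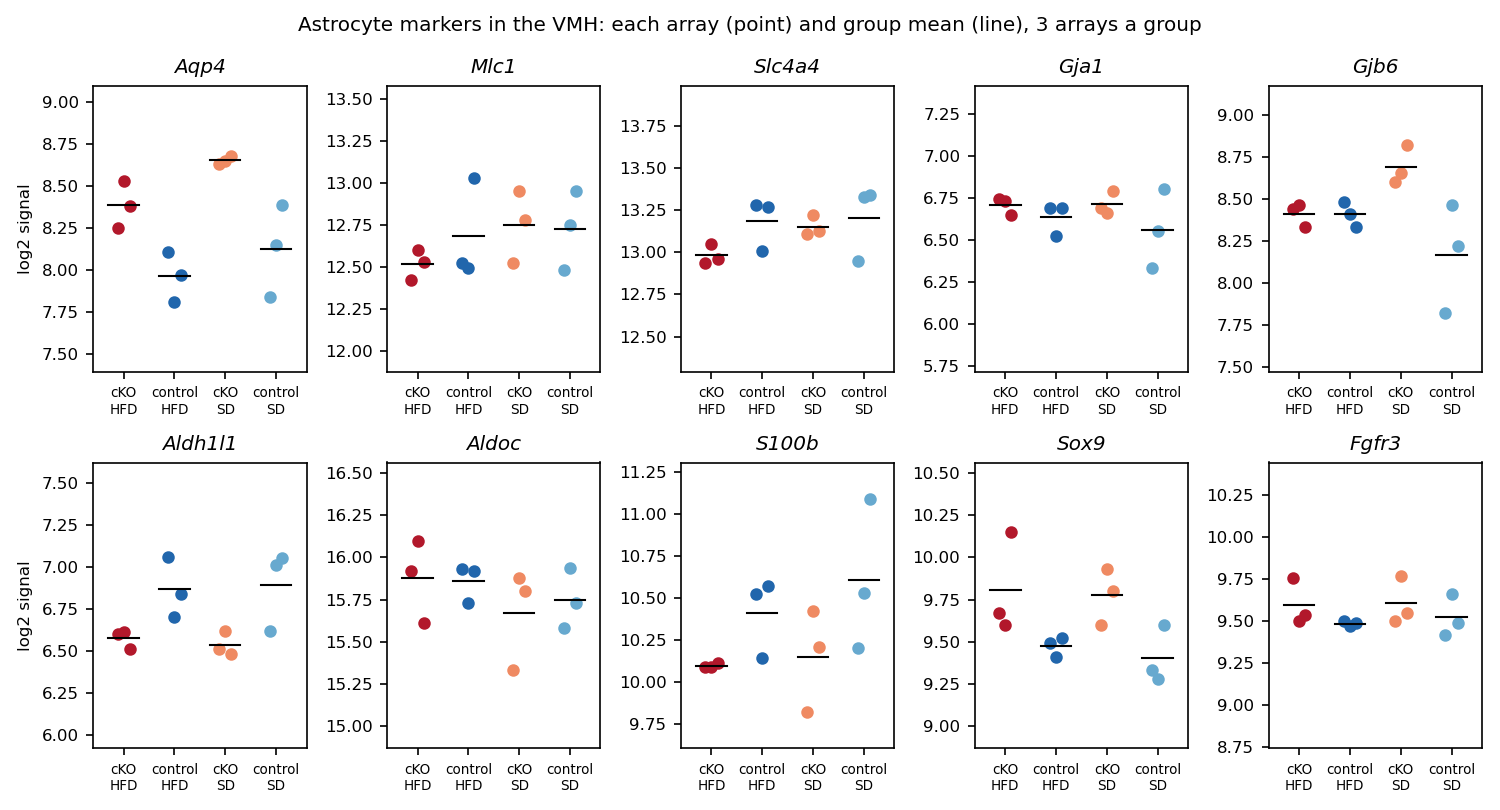
Log2 signal of each of the 10 markers (panels) on each VMH array (points, 3 a group) with the group mean (line), for cKO HFD, control HFD, cKO SD and control SD from left to right. All panels span the same number of log2 units. The 3 cKO arrays lie above the 3 control arrays for Aqp4 on both diets.

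The first question was how the markers differed between cKO and control arrays. Averaged over the diets, Aqp4 rose in the cKO arrays and was the only one of the 10 to pass the test, while the other 9 went both ways. With limma over all genes and Benjamini-Hochberg adjustment, 103 of 16739 genes passed an adjusted p of 0.05, which is 0.615%, 87 of them higher and 16 lower. Of the 10 markers, 5 were higher and 5 lower, with a median difference of 0.033, against 0.023 over all genes tested. At an unadjusted p under 0.05 there were 5 markers, of which Aqp4, Sox9 and Gjb6 were higher and Aldh1l1 and S100b lower, and 1882 genes in all (11.2%). Over all genes, 60.4% were higher in the cKO arrays.

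**Figure D2:**
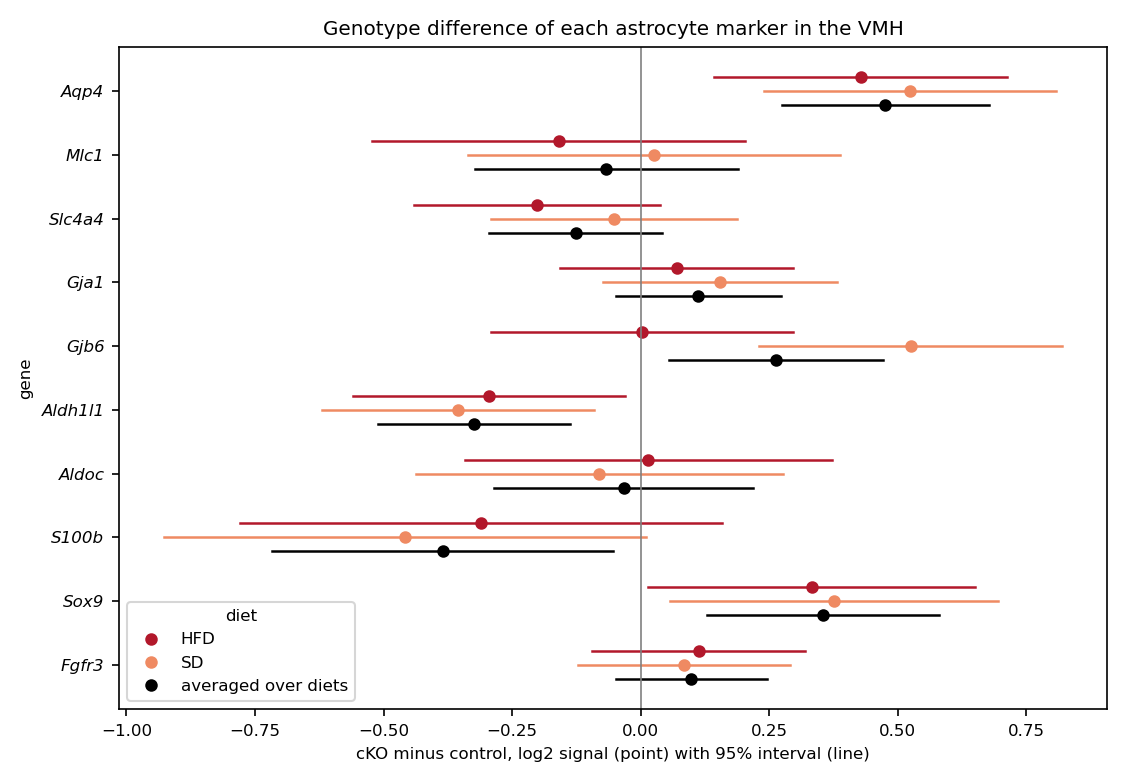
cKO minus control difference in log2 signal of each marker (points) with its 95% interval from limma (lines), on HFD, on SD and averaged over diets. Aqp4 and Sox9 lie right of 0 and Aldh1l1 left of 0 on both diets, while Gjb6 lies at 0.53 on SD and close to 0 on HFD.

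Aqp4, Mlc1 and Slc4a4 belong to the water and ion machinery of the endfeet. Aqp4 encodes aquaporin-4, the main water channel of astrocyte endfeet, and its feature carries 2 gene identifiers in the annotation under this 1 symbol. It had 8.25, 8.53 and 8.38 in the cKO arrays on HFD, against 8.11, 7.81 and 7.97 in the control arrays on HFD. On SD it had 8.63, 8.65 and 8.68 in the cKO arrays, against 7.84, 8.15 and 8.39 in the control arrays. The cKO arrays thus lay above the control arrays on each diet without overlap, and 4 of the 6 cKO arrays lay above all 6 control arrays.

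The Aqp4 difference averaged over diets was 0.48 ± 0.09 (SE; 95% interval 0.27 to 0.68), or 39.0% higher in the cKO arrays (interval 20.9% to 59.8%), with a limma adjusted p of 0.0493. It was 0.43 on HFD (adjusted p 0.273) and 0.52 on SD (adjusted p 0.327), and the genotype effects on the 2 diets differed by -0.10 (interval -0.50 to 0.31). The call sat at the threshold: the adjusted p was 0.0758 with no filter on dim genes, 0.0793 with a replicate block, 0.0899 with the neuropeptide covariate and 0.0577 to 0.143 without any single array other than control SD 1 or control SD 3. The difference itself stayed between 0.40 and 0.54 when any array was left out.

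Mlc1 encodes a membrane protein that works with the adhesion protein GlialCAM in the volume regulation of astrocytes. It had 12.42, 12.60 and 12.53 in cKO arrays on HFD, against 12.52, 12.49 and 13.03 in control arrays. On SD it had 12.52, 12.95 and 12.78 in cKO arrays, against 12.48, 12.75 and 12.95 in control arrays. The groups overlapped on both diets, and the averaged difference was -0.067 (interval -0.32 to 0.19). Control HFD array 3 was the highest of the 12, and without it the difference was 0.021.

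Slc4a4 encodes the electrogenic sodium bicarbonate cotransporter NBCe1, which moves bicarbonate across the astrocyte membrane and buffers pH. Its signal was 12.94, 13.05 and 12.96 in cKO arrays on HFD, against 13.28, 13.01 and 13.27 in control arrays. On SD the values were 13.11, 13.22 and 13.13 in cKO arrays, against 12.95, 13.33 and 13.34 in control arrays. In each diet 2 control arrays lay above all cKO arrays and the remaining one did not, so the groups overlapped. The averaged difference was -0.13 (interval -0.30 to 0.04).

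Partners of these proteins were on a list of 10 water and volume genes, of which 7 were tested. None of the 7 passed in any comparison of genotypes. In the averaged one 11.2% of all genes had an unadjusted p under 0.05, the share to set beside this and each list below. Of the 7, 2 did. These were Dmd, which encodes dystrophin of the endfoot complex that anchors AQP4, at -0.12 (adjusted p 0.420), and Atp1b2, a sodium pump subunit of glia, at 0.21 (adjusted p 0.427). The list's median was 0.049. Of 6 bicarbonate and pH genes 0 passed and 1 reached an unadjusted p under 0.05, the monocarboxylate transporter gene Slc16a1 at 0.20 (adjusted p 0.425). Car2, the carbonic anhydrase next by p, was at -0.42 (adjusted p 0.537).

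Gja1 and Gjb6 encode the connexins, gap junction proteins, that couple astrocytes to each other. Gjb6 had 8.60, 8.65 and 8.82 in cKO arrays on SD, against 7.82, 8.46 and 8.22 in control arrays on SD. On HFD it had 8.44, 8.46 and 8.33 in cKO arrays, against 8.48, 8.41 and 8.33 in control arrays. The cKO arrays on SD were the 3 highest of all 12, and control SD array 1 was the lowest, while the groups on HFD nearly coincided.

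The difference in Gjb6 was 0.53 on SD (interval 0.23 to 0.82; limma adjusted p 0.342) and 0.0022 on HFD (interval -0.29 to 0.30), so neither passed. The test of the difference between the diets, the interaction, gave -0.52 (interval -0.94 to -0.11) with an unadjusted p of 0.0184 and an adjusted p of 0.842. Without control SD array 1 the value on SD was 0.35 and the interaction -0.35, and without control SD array 2 they were 0.67 and -0.67.

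Gja1 had 6.74, 6.73 and 6.65 in cKO arrays on HFD, against 6.69, 6.52 and 6.69 in control arrays. On SD its values were 6.69, 6.66 and 6.79 in cKO arrays, against 6.33, 6.55 and 6.80 in control arrays. The lowest array was again control SD array 1, and the groups overlapped on both diets. The averaged difference was 0.11 (interval -0.05 to 0.27). Of 7 other connexin and pannexin genes tested 0 passed and 1 reached an unadjusted p under 0.05, Gjc3, a connexin gene of oligodendrocytes, at -0.66 (adjusted p 0.188), and the next was the pannexin gene Panx2 at -0.13 (adjusted p 0.540).

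Aldh1l1 and Aldoc encode enzymes. The folate enzyme ALDH1L1 oxidises formyltetrahydrofolate, and its gene is widely used to label astrocytes. Its signal was 6.60, 6.61 and 6.51 in cKO arrays on HFD, against 7.06, 6.70 and 6.84 in control arrays. On SD it was 6.51, 6.62 and 6.48 in cKO arrays, against 6.62, 7.01 and 7.05 in control arrays. The groups did not overlap on HFD, they touched on SD, where control SD array 1 was level with the highest cKO array, and 5 of 6 cKO arrays lay below all 6 control arrays.

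The Aldh1l1 difference averaged over diets was -0.32 ± 0.08 (SE; interval -0.51 to -0.14), or -20.2% on the linear scale, and did not pass (limma adjusted p 0.169). It was -0.29 on HFD and -0.35 on SD. It did pass without control SD array 1, at -0.39 (adjusted p 0.0267), and with array weights, at -0.37 (adjusted p 0.0255), the only 2 of 22 alternative settings in which it did (adjusted p over all of them 0.0255 to 0.331). Among the 22, the fit of only the groups compared is here the main fit itself, and averaging features leaves the values of a 1-feature marker unchanged. Of 5 other folate enzyme genes tested 0 passed and 2 reached an unadjusted p under 0.05, Mthfd2 at -0.12 (adjusted p 0.339) and Mthfd1 at 0.21 (adjusted p 0.432).

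The product of Aldoc is aldolase C, the brain form of a glycolytic enzyme. It had 15.92, 16.10 and 15.61 in cKO arrays on HFD, against 15.93, 15.73 and 15.92 in control arrays. On SD it had 15.33, 15.88 and 15.80 in cKO arrays, against 15.58, 15.94 and 15.73 in control arrays. Highest and lowest of the 12 were both cKO arrays, and the averaged difference was -0.033 (interval -0.29 to 0.22). Of 11 other glycolytic genes 0 passed, 8 were higher in cKO arrays (60.4% of all genes were), and 2 reached an unadjusted p under 0.05: Pfkp, a phosphofructokinase gene, at 0.21 (adjusted p 0.201) and Tpi1, triosephosphate isomerase, at 0.25 (adjusted p 0.304).

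S100b encodes a calcium-binding protein that astrocytes also secrete. It had 10.09, 10.09 and 10.11 in cKO arrays on HFD, against 10.52, 10.14 and 10.57 in control arrays. On SD it had 9.82, 10.42 and 10.21 in cKO arrays, against 10.20, 10.53 and 11.09 in control arrays. The groups did not overlap on HFD but did on SD, where control SD array 3 was the highest of all 12. The averaged difference was -0.38 ± 0.15 (SE; interval -0.72 to -0.05; limma adjusted p 0.378), the largest in size among the markers that were lower, and it did not pass.

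S100b moved with the oligodendrocyte markers, and with other lists too. The mean log2 signal of 16 such markers was 9.47, 9.28 and 9.45 in cKO arrays on HFD, against 9.71, 9.65 and 9.91 in control arrays, and 9.06, 10.01 and 9.63 in cKO arrays on SD, against 9.44, 10.08 and 10.86 in control arrays. None of the 16 passed in the averaged comparison of genotypes, and 5 had an unadjusted p under 0.05, against 11.2% of all genes. In cKO arrays 3 of 16 were higher, against 60.4% of all genes, and their median was -0.54. The smallest p were those of Gjc3 and of Ermn, a myelin cytoskeleton gene, at -0.88 (adjusted p 0.340). Deviations of S100b from its group means correlated with those of this list at a Pearson r of 0.943 over 12 arrays. The r was 0.911 with a list of other astrocyte genes, 0.739 with microglia and 0.702 with vascular markers. It was 0.398 with general neuron markers and -0.304 with tanycyte and ependymal markers. With the oligodendrocyte mean as a covariate the S100b difference was -0.090 averaged over diets and -0.098 on SD, against -0.46 on SD without it, and without control SD array 3 it was -0.22 on SD. The part of oligodendrocyte content in the S100b result was not tested beyond these values.

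**Figure D3:**
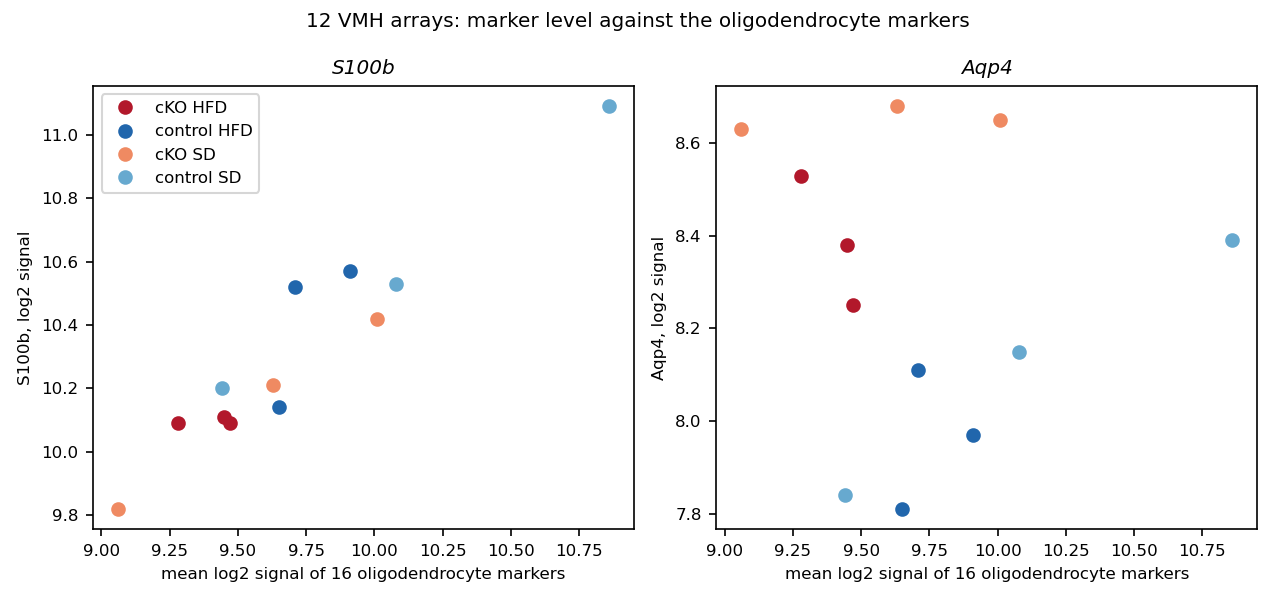
S100b (left) and Aqp4 (right) log2 signal against the mean log2 signal of 16 oligodendrocyte markers on the 12 VMH arrays, coloured by group. S100b follows the oligodendrocyte mean across groups, with control SD array 3 at the top right, while Aqp4 in cKO arrays lies above control arrays of like oligodendrocyte mean.

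With the same covariate Aqp4 was at 0.59 (limma adjusted p 0.0113). With it 350 genes passed in all, against 103 without, so smaller adjusted p were general. The covariate's list was itself lower in cKO arrays (median -0.54), so it is not independent of genotype. With the mean of other hypothalamic neuropeptides as the covariate Aqp4 was at 0.48 (adjusted p 0.0899). With the oligodendrocyte covariate Aldh1l1 was at -0.22, Sox9 at 0.48 and Gjb6 at 0.35, and Mlc1 and Aldoc turned from slightly negative to 0.12 and 0.074. Of the other S100 family list, 4 of 7 genes were tested, 0 passed and 1 reached an unadjusted p under 0.05, and all 4 were higher in cKO arrays, against 60.4% of all genes. The smallest p were those of S100a16 at 0.27 (adjusted p 0.347) and S100a6 at 0.28 (adjusted p 0.467).

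Sox9 and Fgfr3 stand for the regulators. Sox9 encodes a transcription factor that starts gliogenesis and stays on in adult astrocytes. It had 9.67, 9.60 and 10.15 in cKO arrays on HFD, against 9.49, 9.41 and 9.52 in control arrays. On SD it had 9.60, 9.93 and 9.80 in cKO arrays, against 9.33, 9.28 and 9.60 in control arrays. The groups did not overlap on HFD, they touched on SD, and 4 of 6 cKO arrays lay above all 6 control arrays.

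The averaged Sox9 difference was 0.35 ± 0.10 (SE; interval 0.13 to 0.58), or 27.8%, with a limma adjusted p of 0.225, so it did not pass. It was 0.33 on HFD and 0.38 on SD, and 0.27 averaged without cKO HFD array 3, the highest of the 12. It passed with the oligodendrocyte covariate (limma adjusted p 0.0473), with which 350 genes passed in all, and in no other setting (up to 0.425). Of 12 other glial transcription factor genes 0 passed, with a median of 0.017. None of the 12 reached an unadjusted p under 0.05, and the smallest p were those of Nfia at -0.16 (adjusted p 0.528) and Sox2 at 0.18 (adjusted p 0.531), factors of astrocyte differentiation and of neural stem cells.

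Fgfr3 encodes a fibroblast growth factor receptor enriched in astrocytes. It had 9.76, 9.50 and 9.54 in cKO arrays on HFD, against 9.50, 9.47 and 9.49 in control arrays. On SD it had 9.50, 9.77 and 9.55 in cKO arrays, against 9.42, 9.66 and 9.49 in control arrays. The cKO arrays on HFD lay just above the control arrays, and the groups on SD overlapped, with an averaged difference of 0.099 (interval -0.05 to 0.24). Of 10 other FGF receptors, ligands and targets tested 0 passed and 1 reached an unadjusted p under 0.05, Etv5, an ETS factor induced by FGF signalling, at -0.23 (adjusted p 0.279); the inhibitor gene Spry2 was next at -0.21 (adjusted p 0.508).

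As Sox9 and Fgfr3 are also genes of ependymal cells, the tanycyte and ependymal markers are set beside them. All 6 tested were higher in cKO arrays averaged over diets, by 0.059 to 1.26, against 60.4% of all genes. None passed, and 2 had an unadjusted p under 0.05, against 11.2% of all genes. Their mean was 6.82, 7.22 and 7.30 in cKO arrays on HFD, against 6.98, 6.31 and 6.99 in control arrays, and 7.32, 7.00 and 7.07 in cKO arrays on SD, against 7.19, 6.87 and 6.53 in control arrays. The groups overlapped on both diets. Within groups, deviations of this mean correlated with those of Sox9 at -0.050 and of Fgfr3 at -0.431 over 12 arrays. Its part in the Sox9 and Fgfr3 values was not tested.

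Within single diets none of the 10 markers passed. On HFD the arrays of the 2 genotypes did not overlap for 5 of 10 markers, with Aqp4, Sox9 and Fgfr3 higher and Aldh1l1 and S100b lower, against 19.9% of all genes tested. Some margins were narrow. For Fgfr3 the lowest cKO array had 9.503 and the highest control array 9.498. For S100b the highest cKO array had 10.11 and the lowest control array 10.14. On SD they did not overlap for 2 of 10, Aqp4 and Gjb6, both higher, against 9.93% of all genes. By limma, 48 genes passed on HFD (0.287%) and 44 on SD (0.263%), and markers with an unadjusted p under 0.05 numbered 3 on HFD and 4 on SD, against 1865 and 1115 genes in all. The median marker difference was 0.0085 on HFD and 0.055 on SD, against 0.029 and 0.018 over all genes.

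The second question was whether diet moved the markers. No marker passed in either genotype. In cKO arrays, 1 gene of all passed between HFD and SD (0.00597%), the small nucleolar RNA Snord58b, and in control arrays 0 did (0%), with 1591 and 1403 genes at an unadjusted p under 0.05 and 0 of the 10 markers in either. The median marker difference was -0.032 in cKO and -0.022 in control arrays, against 0.026 and 0.015 over all genes. In cKO the HFD arrays lay below the SD arrays without overlap for 3 of 10 markers (Aqp4, Gjb6 and Slc4a4), against 17.5% of all genes for non-overlap in either direction, and in controls for 0 of 10, against 12.4%.

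In cKO arrays the markers furthest apart between diets were Gjb6, Aqp4, Mlc1 and Aldoc, and in control arrays Gjb6, S100b and Aqp4. Gjb6 differed between HFD and SD by -0.28 in cKO arrays (interval -0.58 to 0.01; adjusted p 0.545) and by 0.24 in control arrays (interval -0.05 to 0.54; adjusted p 0.672). Aqp4 differed by -0.26 in cKO arrays (interval -0.55 to 0.02; adjusted p 0.560) and by -0.17 in control arrays (interval -0.45 to 0.12). Mlc1 was at -0.24 in cKO and -0.050 in control arrays, Aldoc at 0.21 in cKO and 0.11 in control arrays, and S100b at -0.055 in cKO and -0.20 in control arrays.

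Values of the VMH neuron markers in the same arrays stand beside these. The mean log2 signal of the 10 VMH neuron markers was 9.30, 9.39 and 9.20 in cKO arrays on HFD, against 8.98, 8.97 and 9.04 on SD. It was 9.18, 9.39 and 9.20 in control arrays on HFD, against 8.99, 8.92 and 9.02 on SD. The mean, which was not tested, was higher on HFD in both genotypes. None of the 10 genes passed, with medians of 0.32 in cKO and 0.27 in controls. At an unadjusted p under 0.05 there were 5 in cKO and 3 in controls, against 9.5% and 8.4% of all genes. Of 16 oligodendrocyte markers 0 passed, and 3 were higher on HFD in cKO and 0 in control arrays, against 59.3% and 55.4% of all genes. Their medians were -0.18 in cKO and -0.37 in control arrays. The part of either list in the diet values of the 10 astrocyte markers was not tested. In the interaction of genotype and diet 0 genes passed (0%), 944 had an unadjusted p under 0.05, and Gjb6 was the only marker among them.

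The markers moved together from array to array within groups, unevenly over the groups. Standard deviations of Aqp4, Slc4a4, Gja1, Aldh1l1, S100b and Gjb6 were largest among control arrays on SD. For Aqp4 it was 0.275 there, against 0.026 to 0.152 in the other groups. Sox9, Aldoc, Fgfr3 and Mlc1 had theirs in another group. How far the control arrays on SD carry the correlations was not tested. Over the 12 arrays, after each group's mean was taken off, 42 of the 45 pairs of markers had a positive Pearson r, with a median of 0.523. These pairs were not set against pairs of other genes, and the markers also ran with other cell types, as given below. The highest were Aldh1l1 with Slc4a4 at 0.915, Aqp4 with Slc4a4 at 0.869 and Aqp4 with Gja1 at 0.850, and the lowest was Sox9 with Aldoc at -0.144. Sox9 and Fgfr3 stood somewhat outside, since the 3 negative pairs all held one of them. The points of such a correlation share arrays, tissue pieces and normalization, and n is 12, so these values describe the arrays.

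**Figure D4:**
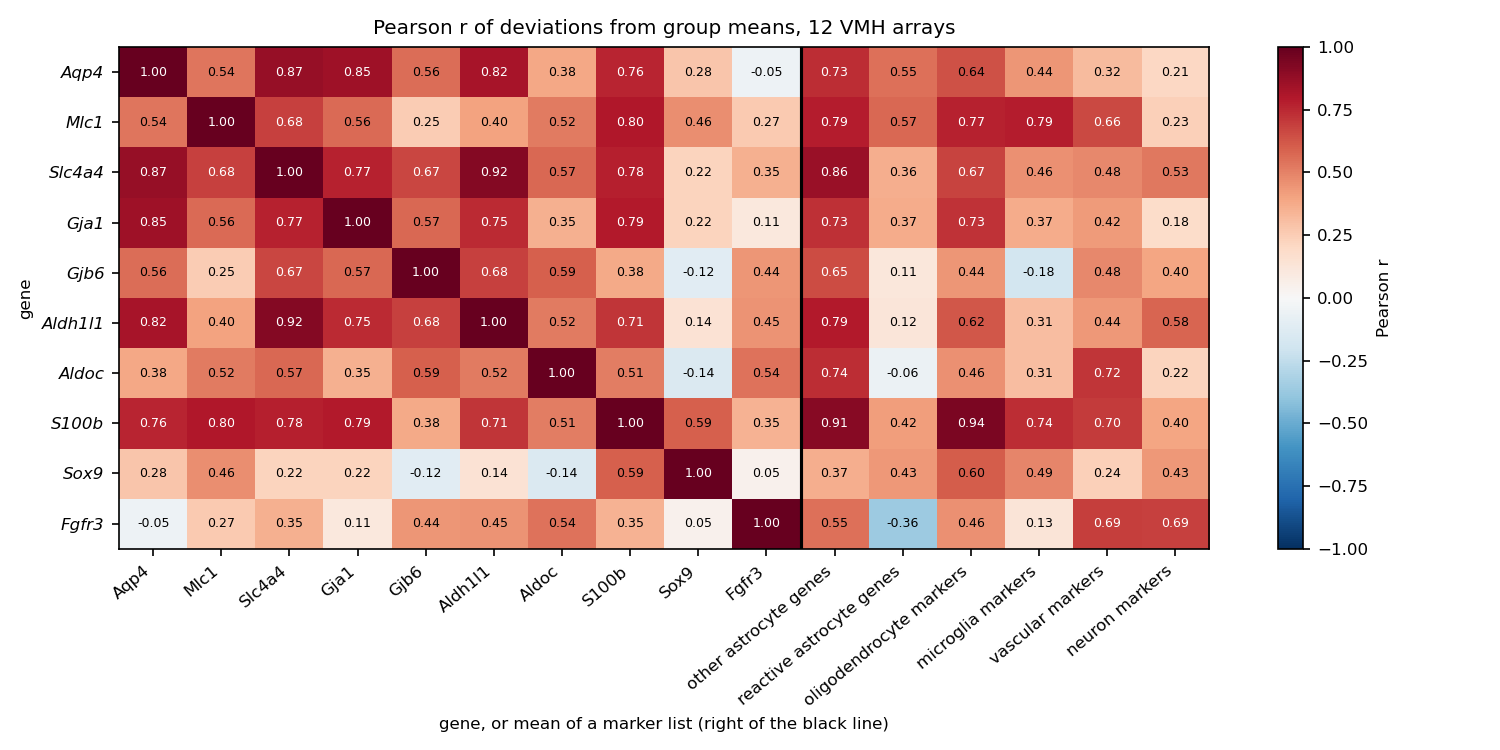
Pearson r of deviations from group means over 12 VMH arrays, between the 10 markers (left of the black line) and between each marker and the mean of 6 marker lists (right of it). Red is positive and blue negative. The block of Aqp4, Slc4a4, Gja1, Aldh1l1 and S100b is red throughout, and the column of oligodendrocyte markers is red for all 10.

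Some pairs that moved together within groups were opposed across genotypes. Aqp4 and Aldh1l1 correlated at 0.822 within groups, but at -0.389 over all 12 arrays, where Aqp4 was higher and Aldh1l1 lower in cKO. The median r over all arrays was 0.271. The mean of the 10 markers was 10.08, 10.13 and 10.08 in cKO arrays on HFD, against 10.16, 9.97 and 10.16 in control arrays, and 10.03, 10.28 and 10.20 in cKO arrays on SD, against 9.86, 10.16 and 10.27 in control arrays. It thus overlapped between genotypes on both diets, and control SD array 1 was the lowest.

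Deviations of the 10 markers also ran with those of other cell types. All 10 correlated positively with the oligodendrocyte markers (0.440 to 0.943), with the vascular markers (0.239 to 0.718) and with the general neuron markers (0.185 to 0.687), and all 10 with a list of 31 other astrocyte genes (0.366 to 0.911). With the tanycyte and ependymal markers none was positive (-0.431 to -0.035), and with VMH neuron markers 2 of 10 were. A search for genes like the mean of the markers covered 11671 genes. It left out the markers and, by symbol pattern, predicted genes and small RNAs. Those most like it by within-group deviations were Ermn (0.984), Psat1, of serine synthesis (0.977), Car2 (0.974), Pik3c2a (0.973) and Commd3 (0.971), of which Ermn is on the oligodendrocyte list. Over all 12 arrays they were Mtmr10 (0.942), Itgb8 (0.939), Tfdp2 (0.920), Tbcel (0.917) and Gabarapl2 (0.917).

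The other astrocyte genes give the setting of the 10 markers. Of 31 tested, 4 passed in the averaged comparison of genotypes, 2 higher and 2 lower, against 0.615% of all genes. The list was chosen with earlier results of these data known, so its share of passing genes is no independent result. Of the 31, 24 were higher in the cKO arrays, against 60.4% of all genes, and the median was 0.093. Etnppl, an astrocyte phospholyase of phosphoethanolamine, had 8.84, 8.59 and 8.35 in cKO arrays on HFD, against 11.21, 10.45 and 10.94 in control arrays, and 8.59, 8.64 and 8.77 in cKO arrays on SD, against 10.42, 10.98 and 10.79 in control arrays. It fell by 2.17 on the log2 scale (limma adjusted p 1.9e-05). Prex2, a Rac exchange factor, fell by 1.36 (adjusted p 0.000828).

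Pla2g7, which encodes a secreted phospholipase that degrades platelet-activating factor, rose by 0.96 (adjusted p 0.0155), and Grin2c, an NMDA receptor subunit found in astrocytes, rose by 0.22 (adjusted p 0.0407). Grin2c was dim, at 6.09 to 6.47, around the median of the negative controls. Etnppl and Prex2 also passed on each diet, both lower. The cKO arrays of both lay below the control arrays without overlap on each diet. Gfap, the gene whose promoter directs the deletion and a marker of reactive astrocytes, averaged 12.42 ± 0.52 in cKO arrays on HFD, against 11.33 ± 0.38 in control arrays, and 12.98 ± 0.25 in cKO arrays on SD, against 11.45 ± 1.07 in control arrays (SD, n = 3 each). The groups did not overlap on either diet, and the averaged difference of 1.31 did not pass (limma adjusted p 0.129). Of 8 reactive astrocyte genes tested, Gfap included, 0 passed and 1 reached an unadjusted p under 0.05, with a median of 0.071 and Osmr, the oncostatin M receptor, next after Gfap at 0.12 (adjusted p 0.461).

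**Figure D5:**
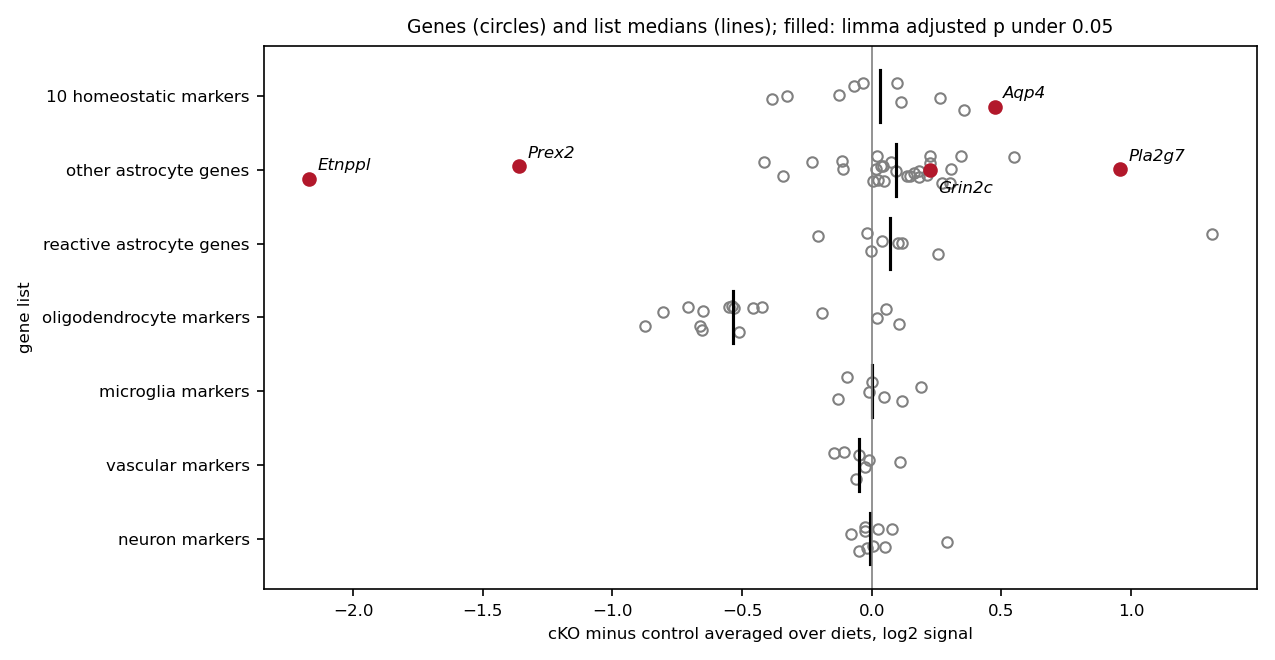
cKO minus control difference in log2 signal averaged over diets for each tested gene (circles) of 7 lists, with the list's median (line); filled circles passed limma at an adjusted p under 0.05. Aqp4 is the only filled circle among the 10 markers, and the oligodendrocyte markers lie mostly left of 0, with a median of -0.54.

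No marker of the remaining cell types passed in the averaged comparison of genotypes. The medians were 0.00038 for 7 microglia markers, -0.048 for 7 vascular markers, -0.0063 for 10 neuron markers, 0.040 for 10 VMH neuron markers, 0.13 for 6 tanycyte and ependymal markers, 0.31 for 3 choroid plexus markers and 0.059 for 11 other hypothalamic neuropeptides. The numbers at an unadjusted p under 0.05 were 1, 0, 1, 0, 2, 1 and 0 in that order, against 11.2% of all genes. The smallest p among them were those of Clic6 (0.31, adjusted p 0.0855) of the choroid plexus list and Tubb3 (0.29, adjusted p 0.169) of the neuron list.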

How the data were processed

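Total RNA of VMH and brown adipose tissue was measured on 24 Affymetrix arrays, of which the 12 of VMH were tested here. The authors deposited log2 signals, 1 column per array; per the submitters' processing notes the tools were PLIER 2.0 and Affymetrix Expression Console 1.1.1, without their roles. How arrays were normalized to each other, and which genome build was used, is not given in the sources used here. Precision is limited by how few arrays there are.

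Of 65956 features that were no controls, 30604 had 1 gene symbol in the platform annotation, 2146 several and 33206 none; 813 symbols were updated through a GRCm38.p6 gene table. A gene, stood for by its brightest feature, entered the test from a mean of 5.39 over the 12 arrays, the median over those features. The 4 group means were fitted with limma 3.58.1 (R 4.3.3) without a block, two-sided, with Benjamini-Hochberg adjustment over 16739 genes and a threshold of 0.05; the procedure was tested on simulated data. No p-value was adjusted over the markers alone.

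The text names all 10 markers, Gfap, the genes of each list past the threshold in a comparison of genotypes (at most 5) or else up to 2 by smallest p, and the 5 genes most like the markers' mean over all arrays and within groups. Genes named beyond that rule, chosen after their values were seen, are Arntl, Nr5a1, Ttr and Snord58b, and the 3 promoters shown were chosen likewise. Members and lists were chosen with earlier results of these data known. Alternatives were quantile normalization, a pseudocount of 16, array weights, a replicate block, no filter, a trended and robust prior, features of a gene averaged, fits of only the groups compared, the oligodendrocyte or neuropeptide mean as a covariate, and leaving out each array. Same-numbered arrays of different groups correlated in their deviations at -0.343 to 0.282, with 3 of 18 pairs over 0.1, so the numbers were not taken to pair samples.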

Additional observations from a re-analysis of the deposited data

How the results depend on the processing

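For the 10 markers, the number past the threshold averaged over diets was 1, and it was 0 with no filter, with a replicate block or with the neuropeptide covariate, 2 with array weights (Aqp4 and Aldh1l1) or the oligodendrocyte covariate (Aqp4 and Sox9), and 0 to 2 without single arrays. The adjusted p of Aqp4 was 0.0793 with the replicate block and 0.0899 with the neuropeptide covariate. In the other 5 comparisons the number stayed at 0 in all settings. Of 220 values of single markers in the averaged comparison (10 markers in 22 settings), 6 changed sign, none of them a called value. Some settings leave these differences as they are, so no sign could change there. They are no filter, the trended and robust prior, the replicate block, averaged features and only the groups compared. The number of all genes past the threshold on SD, 44, was 10 with only the groups compared, 85 with the oligodendrocyte covariate and 22 to 44 without single arrays, lowest without cKO SD array 2. On HFD, 48 genes became 117 with array weights, 107 with the oligodendrocyte covariate and 31 to 53 without single arrays. Averaged, 103 became 203 and 350 with those settings. Between diets in cKO arrays, 1 gene became 2 with quantile normalization, 0 with only the groups compared, 22 with array weights and 1 to 3 without single arrays. The causes were not tested. Signal over background limits the 6 markers below the 95th percentile of the negative controls, Aqp4 among them, and most of all Gja1 and Aldh1l1; Grin2c lay lower still.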

Other observations

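Brown adipose tissue of the same groups was on 12 further arrays, which entered no comparison above. There 4 of the 10 markers were dim, Gjb6 at 3.23 to 3.55, Aldoc at 3.48 to 3.81, Mlc1 at 3.65 to 3.88 and Fgfr3 at 4.19 to 4.42 on the log2 scale, against a median of 4.45 over all genes in that tissue. Aldh1l1 was brighter there than in the VMH, at 6.79 to 8.44, against 6.48 to 7.06 in the VMH. S100b, which fat cells also express, ranged from 5.16 to 13.2 and Slc4a4 from 9.17 to 14.5. Array medians differ between the tissues, and no level was tested between them.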
